A study of Canis rufus and Canis latrans with 56 samples.

Results

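The 10 genes ATG3, RUBCNL, GABARAP, GABARAPL1, GABARAPL2, MAP1LC3B, SQSTM1, ULK1, BECN1 and ATG12 encode parts of the autophagy machinery. They were taken by gene symbol from the probe annotation, where each has 1 probe, so 10 probes of 24354 and 10 genes of 16121 are described. The samples are whole blood kept in RNAlater from 1 coyote (Canis latrans, animal 20288) and 13 red wolves (Canis rufus), members of an endangered wild canid of North America. The study asked how confinement marks blood gene expression; its design text gives the coyote as a free-ranging female and counts 6 captive and 7 free-ranging wolves, but the labels used here name no captive wolf and give no wolf's sex or age. A note of collection in the wild stands on 1 array of the coyote and of wolves 11136, 111080 and 11310; the other wolves carry no such note, so wolves were not compared by status. Each animal's labelled RNA went onto 4 bead arrays with human probes, 56 arrays on 7 slides of 8, and these technical arrays count as 1 animal. Levels are given as log2 intensity, with the array's mean at 0 and slide effects removed, and a difference of 1 is a doubling of intensity. A gene name is that of the human probe, and its match to the canid transcript was not examined, so levels are compared between animals for a probe and not between probes.

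Autophagy encloses portions of cytoplasm in a double membrane and delivers them to the lysosome for breakdown. The ULK1 kinase starts the process, and the BECN1 lipid kinase complex marks the site where the membrane grows. A relay resembling ubiquitin conjugation, with ATG3 and ATG12 among its parts, then attaches small proteins of the LC3 and GABARAP families to the membrane lipid, where they draw in cargo receptors such as SQSTM1. In mammalian blood the pathway is known for clearing mitochondria from maturing red cells, with BNIP3L as the mitochondrial receptor.

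Of the 10 probes, 5 stood above background: GABARAPL2, BECN1, ATG3, RUBCNL and GABARAP. The bound for background was a mean level of 0.396, the highest among 39 measured liver and skeletal muscle genes, and 8.47% of all probes exceeded it. The other 5 probes, those of ULK1, MAP1LC3B, SQSTM1, GABARAPL1 and ATG12, had mean levels between -0.21 and 0.09 and were not above the bound in any of the 14 animals. For these 5 genes no transcript level can be read from the arrays. A low level of transcript cannot be told apart from poor binding of a canid transcript to a human probe. Among marker genes of blood, 7 of 18 measured red cell genes lay above the bound, among them the globin gene HBD at 6.15, while the red cell genes ALAS2 and SLC4A1 did not (-0.08 and -0.23). Of the white cell and platelet lists, 1 of 21 neutrophil, 2 of 14 monocyte, 2 of 17 T cell, 0 of 13 B and plasma cell, 2 of 15 cytotoxic cell and 1 of 15 platelet genes did.

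**Figure D1:**
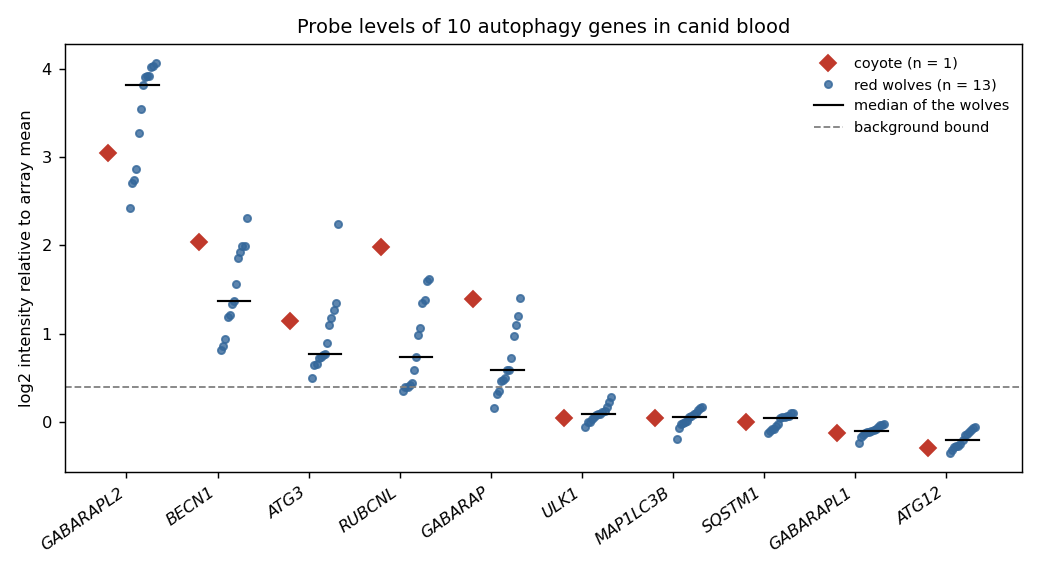
Level of each of the 10 genes in the coyote (red diamond, left) and in the 13 red wolves (blue points, with their median as a bar), as log2 intensity relative to the array mean; the dashed line is the background bound of 0.396. GABARAPL2, BECN1, ATG3, RUBCNL and GABARAP spread widely over the wolves, and the other 5 genes lie below the bound in all 14 animals.

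The first comparison asked whether the genes differed among the 13 wolves by more than the repeated arrays of an animal. GABARAPL2, BECN1, ATG3, RUBCNL and GABARAP all did, with spans between the lowest and the highest wolf of 2.01-fold or more over all arrays, and the 5 genes below the bound did not pass. The smallest span, that of GABARAP, rests at its high end on a single array of wolf 11206. The test was limma's moderated F test of the animals with slide in the model, at a Benjamini-Hochberg adjusted p under 0.05 over all probes. It called 11.2% of all probes, 78.1% of those above the bound and 5.02% of those at or below it. The 5 calls among 5 members above the bound are therefore near what probes of that brightness gave in general, and nothing particular to autophagy is read from the count. The median SD over wolves was 0.24 for the 10 genes, which mix dim and bright probes, and 0.09 over all probes. Over all probes above the bound it was 0.24. The 5 members above the bound had SDs from 0.38 (GABARAP) to 0.60 (GABARAPL2), larger than those of 74.5% to 91.7% of the probes above the bound. Blood RNA mixes cell types, and fewer cells of a type cannot be told apart from less RNA per cell.

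At the start of the pathway, the kinase gene ULK1 had levels from -0.05 in wolf 11148 to 0.28 in wolf 11273, with a median of 0.09 (SD over wolves 0.09, SD between arrays 0.13; limma adjusted p = 0.344). All 13 wolves lay below the bound.

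BECN1 encodes beclin 1, the regulatory subunit of the lipid kinase complex that nucleates the autophagosome. Its level was lowest in wolf 11136 at 0.82, had a median of 1.37 and was highest in wolf 11270 at 2.31. Wolves 11310, 11105, 11206 and 111080 followed at 2.00, 2.00, 1.92 and 1.86, and the other 8 wolves stood at 1.56 or lower. The span was 2.82-fold, the SD over wolves 0.49 against 0.19 between arrays, and the share of variance between wolves 0.866 (limma adjusted p = 2.75e-17). In the order of all 14 animals, only the gaps below wolf 11270 and below wolf 111080 exceeded 2 standard errors of the difference, so most neighbours did not differ beyond their array noise. On the arrays of wolf 11136 the signals spanned the least (95th percentile of the levels 0.381, against 0.568 to 0.866 in the other 12 wolves). When quantile normalization forced one distribution on all arrays, wolf 10632 was lowest at 1.04 and the SD was 0.33 (adjusted p = 3.78e-10).

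RUBCNL encodes Pacer, which in human cells works with the BECN1 complex in the maturation of autophagosomes. Its level ran from 0.35 in wolf 11273 over a median of 0.74 to 1.62 in wolf 11206. Wolf 111080 at 1.60, wolf 11310 at 1.38, wolf 11270 at 1.35 and wolf 11105 at 1.06 came next. Wolves 10632, 11274, 11136, 10406 and 11273 lay between 0.35 and 0.44, at or near the bound, so the span was at least 2.33-fold. The SD over wolves was 0.48 against 0.17 between arrays (share of variance 0.881; limma adjusted p = 5.89e-19). Among the wolves of a slide, the SD lay between 0.32 and 0.63 on the 7 slides.

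The conjugation enzymes gave 1 probe above the bound and 1 below it. ATG3, the enzyme that transfers LC3 and GABARAP proteins to the membrane lipid, was lowest in wolf 11136 at 0.50, had a median of 0.77 and reached 2.24 in wolf 11310. The next wolf, 11275, stood at 1.35, and the gap of 0.89 (SE 0.17) below wolf 11310 was the only one among the 14 animals beyond 2 standard errors. The span was 3.35-fold, with an SD over wolves of 0.46 against 0.23 between arrays (limma adjusted p = 1.52e-14). Without wolf 11310 the SD fell to 0.28, and the gene still passed (adjusted p = 2.05e-06). ATG12, the ubiquitin-like protein that joins ATG5 in the complex guiding ATG3, lay between -0.35 in wolf 11105 and -0.06 in wolf 11310 (median -0.21, SD 0.10, adjusted p = 0.597).

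Of the small proteins placed on the membrane, GABARAPL2, also known as GATE-16, had the largest SD over wolves of the 10 probes. It was lowest in wolf 11310 at 2.43, had a median of 3.82 and was highest in wolf 11105 at 4.06. Wolves 10537, 11275, 11274, 10406, 11270 and 11273 formed a plateau between 3.82 and 4.03 below it. Wolf 11148 stood at 3.55 and wolf 111080 at 3.27, and wolves 11206, 11136, 10632 and 11310 lay between 2.43 and 2.87. The span was 3.11-fold, the SD over wolves 0.60 against 0.21 between arrays and the share of variance 0.885 (limma adjusted p = 3.42e-18). No gap between neighbours exceeded 2 standard errors, and whether the order is graded or stepped was not tested.

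GABARAP, the founding member of its family and first described as a binding partner of GABA receptors, ran from 0.15 in wolf 11273 over a median of 0.58 to 1.40 in wolf 11206. Only 10 of 13 wolves exceeded the bound, so the span over all arrays was at least 2.01-fold. The SD over wolves was 0.38 and that between arrays nearly as large, 0.37, so the share of variance between wolves, 0.432, was the smallest among the members that passed (adjusted p = 9.17e-06). The highest level rests on a single array: wolf 11206 had 2.69 on it and between 0.87 and 1.11 on the other 3. With the 6 arrays left out that stood apart for any member, an alternative chosen after seeing the data, wolf 11206 was at 0.92 and wolf 111080 was highest at 1.28. The call then held at an adjusted p of 5.83e-10. Leaving out arrays for standing apart lowers the noise between arrays by itself, so the smaller p adds no support.

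GABARAPL1 lay between -0.24 in wolf 10406 and -0.03 in wolf 11105 (median -0.11, SD 0.06, adjusted p = 0.864). MAP1LC3B, the LC3 form most often used as a marker of autophagosomes, lay between -0.19 in wolf 11310 and 0.16 in wolf 111080 (median 0.06, SD 0.10, adjusted p = 0.299). Both genes have near-identical human copies, GABARAPL3 and MAP1LC3B2, and whether a probe separates them was not tested. The cargo receptor SQSTM1, or p62, which links ubiquitin-tagged cargo to LC3, lay between -0.12 in wolf 11274 and 0.10 in wolf 10632 (median 0.04, SD 0.08, adjusted p = 0.551).

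**Figure D2:**
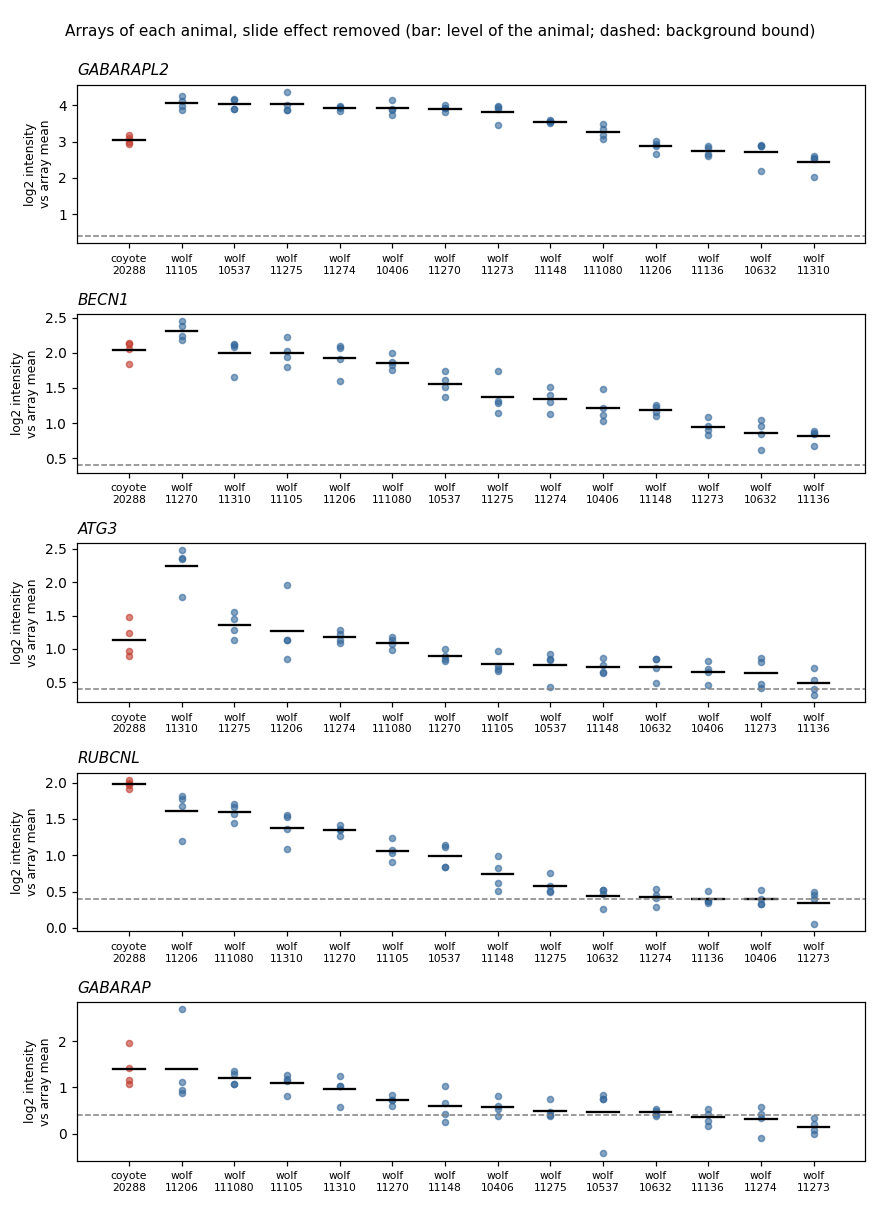
The 4 arrays of each animal (points, slide effect removed) and the level of the animal (bar) for the 5 genes above background, as log2 intensity relative to the array mean, with the coyote in red at the left and the wolves in blue from high to low for each gene. In GABARAP a single array of wolf 11206 at 2.69 and a single array of wolf 10537 at -0.43 lie far from the other 3, and in ATG3 wolf 11310 stands above the other wolves.

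BECN1, RUBCNL and GABARAP ranked the wolves alike. The 5 highest wolves were 11105, 11206, 11270, 11310 and 111080 for each of these 3 genes, while only 3 of these 5 were among the highest for ATG3 and 1 of 5 for GABARAPL2. For GABARAP this set depended on single arrays. Without the arrays that stood apart, wolf 10537 moved from place 9 to place 5 among the wolves, so the set was then not the same. Over the 13 wolves, RUBCNL had a Pearson r of 0.875 with BECN1 (Spearman rho 0.802) and 0.884 with GABARAP (rho 0.874), and GABARAP had r = 0.751 with BECN1 (rho 0.736). Without the 2 wolves farthest from the median of the gene set against it, r of RUBCNL was 0.863 with BECN1 and 0.785 with GABARAP. Among the wolves of each slide, RUBCNL and BECN1 had r between 0.50 and 0.926, and RUBCNL and GABARAP between 0.311 and 0.909. These correlations are descriptions over animals that share slides and signal ranges, and no p is given. Of the probes above the bound, 4.27% had an r with BECN1 at least as high as RUBCNL had, and 14.3% an r with RUBCNL at least as high as BECN1 had. For RUBCNL and GABARAP these shares were 2.04% (with GABARAP) and 12.9% (with RUBCNL), and for GABARAP and BECN1 they were 21.6% (with BECN1) and 19.2% (with GABARAP).

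GABARAPL2 did not follow those 3 genes. Its r was 0.09 with BECN1, -0.24 with RUBCNL and -0.29 with GABARAP as deposited, and -0.37, -0.75 and -0.76 after quantile normalization. ATG3 had r = 0.508 with BECN1 (rho 0.731), 0.498 with RUBCNL (rho 0.692) and -0.37 with GABARAPL2 (rho 0.03), and the last was 0.04 without wolves 11310 and 10632. Over the 10 pairs of the 5 genes, the median r was 0.464, with a range of -0.37 to 0.884, against a median of 0.334 over all pairs of probes above the bound.

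**Figure D3:**
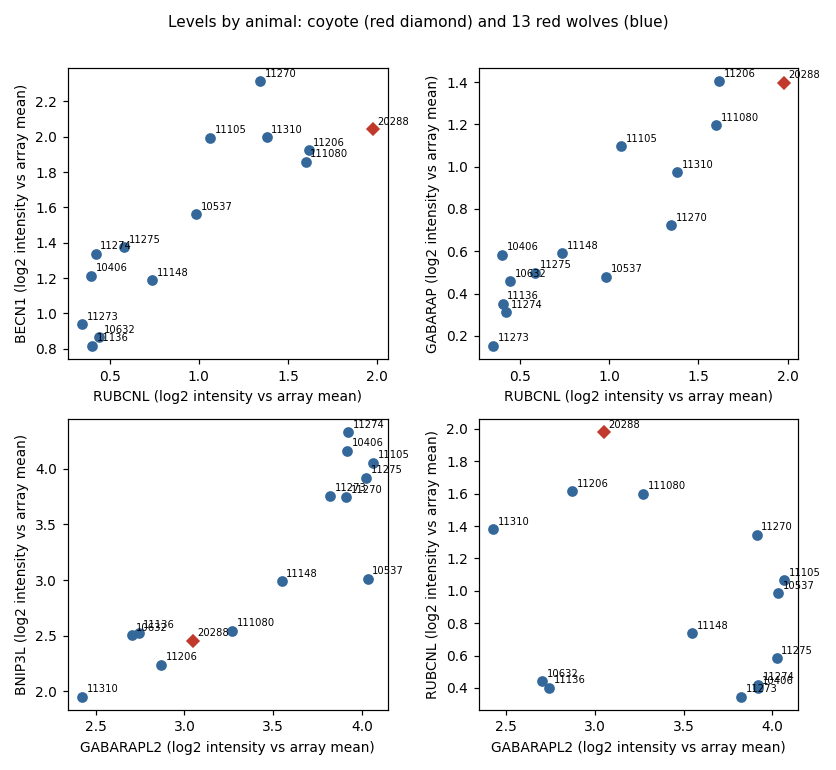
Levels of 4 gene pairs by animal, each axis in log2 intensity relative to the array mean, with the coyote as a red diamond and the 13 wolves as blue points marked by animal number. RUBCNL goes with BECN1 (r = 0.875) and with GABARAP (r = 0.884) over the wolves, GABARAPL2 goes with the mitophagy receptor gene BNIP3L (r = 0.885), and GABARAPL2 and RUBCNL do not go together (r = -0.24).

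Scores of the marker lists went along with some members over the wolves. The red cell score, the mean of 18 measured marker genes relative to the wolves' mean, ran from -0.16 in wolf 11310 to 0.14 in wolf 11105, and the summed level of the list from 8.51 to 13.8 in wolves, with 10.3 in the coyote. GABARAPL2 had r = 0.741 with it (rho 0.780; 0.723 after quantile normalization; 0.482 to 0.880 within slides), and 34.8% of the probes above the bound had an r at least as high. BECN1, RUBCNL, GABARAP and ATG3 had r between -0.36 and -0.16 with the red cell score as deposited and between -0.82 and -0.41 after quantile normalization. The monocyte score ran from -0.06 in wolf 11273 to 0.06 in wolf 11310, with 0.17 in the coyote. Its r was 0.567 with GABARAP, 0.374 with RUBCNL and -0.67 with GABARAPL2, and 0.309, -0.01 and -0.45 without wolves 11310 and 11206, the farthest from its median. Of the monocyte list TYROBP was above the bound (0.57), FCER1G passed it only through the coyote (mean 0.28 in the wolves, 4 of 13 above the bound), and the defining markers CD14, LYZ and CSF1R were below it (-0.16, -0.20 and -0.07). Without FCER1G the r of the other 13 genes' score was -0.03 with GABARAP, -0.17 with RUBCNL and -0.58 with GABARAPL2. The neutrophil score, with 1 of 21 genes above the bound, had r = -0.75 with GABARAP (0.291% of the probes above the bound as low) and 0.620 with GABARAPL2 (1.60% as high), and the cytotoxic cell score had r = -0.70 with BECN1 (0.436% as low). The liver score, from genes none of which was above the bound, had r = -0.85 with BECN1, -0.77 with RUBCNL and -0.70 with GABARAP, so scores of dim probes also correlate with these members. The part of cell composition in the differences among wolves was not tested.

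The genes most like each member, as Pearson r over the 13 wolves among 1596 other named genes above the bound, differed between members. RUBCNL was closest to SORL1, a sorting receptor of endosomes (r = 0.976), TBC1D23, a trafficking adaptor of the Golgi (0.972), and the phosphatase subunit gene PPP1CC (0.971). GABARAP was closest to FCER1G, the signalling chain of Fc receptors in myeloid cells (0.987), which entered the search only through its level in the coyote and was above the bound in 4 of 13 wolves, the 14-3-3 protein gene YWHAZ (0.938) and the filament gene VIM (0.937). The Spearman rho with GABARAP was 0.973 for FCER1G, 0.703 for YWHAZ and 0.940 for VIM. These correlations include the single array of wolf 11206 at 2.69 for GABARAP. BECN1 was closest to MTCH2, a protein of the outer mitochondrial membrane (0.961), the RNA-binding protein gene HNRNPA3 (0.954) and the proteasome subunit gene PSMD11 (0.941). GABARAPL2 was closest to DCUN1D1, a factor of protein neddylation (0.951), the phosphatase gene PPM1A (0.932) and the adiponectin receptor gene ADIPOR1 (0.932). ATG3 was closest to CHCT1 (0.811), PPP1R15A, a stress-induced phosphatase subunit (0.758), and IMPA2, an inositol phosphatase (0.741), with Spearman rho of 0.522, 0.582 and 0.709. PPP1R15A also averaged below the bound in the wolves (0.37) and entered through the coyote (0.84).

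The wider autophagy pathway was read from 7 lists with 117 genes, of which 110 were measured and 12 lay above the bound. Among the wolves 16 of the 110 passed the F test (14.5%, against 11.2% of all probes). Of the 12 above the bound 10 passed, near the share over all probes above the bound, 78.1%. By step, 1 of 15 initiation genes passed, 1 of 9 nucleation genes, 2 of 11 conjugation genes, 3 of 18 cargo receptor genes, 2 of 16 fusion genes, 3 of 18 lysosome genes and 4 of 23 regulators. The median SD over wolves was 0.10 for the 110 genes and 0.09 for all probes.

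Among the cargo receptors, FKBP8, an anchor of mitophagy in the outer mitochondrial membrane, had the largest SD of the wider lists, 1.01, with levels from -0.19 in wolf 11136 to 3.16 in wolf 10406 (adjusted p = 6.97e-34). Its levels in wolf 11136 and in wolf 11310 (0.19) lay below the bound, so the low end of this span is at background. BNIP3L, also called NIX, ran from 1.95 in wolf 11310 to 4.33 in wolf 11274 (SD 0.81, adjusted p = 1.69e-20). CCPG1, a receptor for turnover of the endoplasmic reticulum, ran from 0.49 in wolf 11273 to 1.68 in wolf 111080 (SD 0.44, adjusted p = 2.75e-19). The lowest wolf thus differed between the 3 receptors. TOLLIP, an adaptor for ubiquitin-tagged protein aggregates, was the fourth receptor above the bound and did not pass (SD 0.12, adjusted p = 0.301).

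BCL2L1, which encodes BCL-XL, an apoptosis inhibitor that also binds beclin 1, ran from 0.49 in wolf 11310 to 2.80 in wolf 11275 (SD 0.65, adjusted p = 6.68e-25). ATG16L1, which positions the conjugation machinery on the membrane, ran from 1.73 in wolf 11136 to 3.07 in wolf 11105 (SD 0.40, adjusted p = 8.11e-05). Its SD between arrays was nearly as large, 0.39, and its share of variance between wolves was 0.407. VPS39, a subunit of the HOPS tether for fusion with lysosomes, ran from 2.76 to 4.44 (SD 0.52, adjusted p = 2.16e-13). Wolf 11136, lowest for both, was also the wolf whose signals spanned the least. LAMP2, a lysosomal membrane protein, ran from 0.46 in wolf 11274 to 2.02 in wolf 111080 (SD 0.61, adjusted p = 4.30e-21), and LAPTM4A, another, from 0.29 to 0.85 (SD 0.18). PRKAA1, a catalytic subunit of the energy sensor AMPK that activates ULK1, ran from 0.32 in wolf 11273 to 1.73 in wolf 11310 (SD 0.46, adjusted p = 3.66e-18). FOXO3, a transcription factor that switches on autophagy genes, ran from 0.29 in wolf 11310 to 1.04 in wolf 10537 (SD 0.23, adjusted p = 4.30e-09). The lowest levels of LAPTM4A, PRKAA1 and FOXO3 lay below the bound, so the low ends of their spans are at background. The remaining 6 that passed, ATG2A, ATG4C, VPS33A, CTSB, RRAGA and RRAGC, had mean levels between -0.14 and 0.33, below the bound, and SDs of 0.25 or less.

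Several of these genes correlated with GABARAPL2 and others with RUBCNL. GABARAPL2 had r = 0.885 with BNIP3L, 0.885 with FOXO3 and 0.859 with BCL2L1 over the 13 wolves. Of the probes above the bound, 0.388%, 0.339% and 0.582% reached as high an r with GABARAPL2. After quantile normalization the r were 0.931, 0.877 and 0.891, and within slides they lay between 0.555 and 0.960. These genes had the highest r with GABARAPL2 among the 12 wider-list genes above the bound. ATG16L1 and VPS39 had r of 0.703 and 0.702 with GABARAPL2, which 15.2% and 15.5% of the probes above the bound reached. CCPG1, PRKAA1 and LAMP2 had r of 0.923, 0.878 and 0.807 with RUBCNL, against -0.10, -0.33 and -0.33 with GABARAPL2 (-0.62, -0.66 and -0.61 after quantile normalization). FKBP8 had r = 0.741 with GABARAPL2, which 8.10% of the probes above the bound reached. LAPTM4A went with neither (r = 0.303 with GABARAPL2 and 0.00 with RUBCNL). For CCPG1, PRKAA1 and LAMP2, 6.20%, 14.0% and 24.3% of the probes above the bound had as high an r with RUBCNL. The red cell score had r of 0.927 with VPS39, 0.924 with ATG16L1, 0.846 with BCL2L1, 0.700 with BNIP3L and 0.480 with FOXO3. Of the probes above the bound, 4.84%, 5.38%, 20.6%, 38.6% and 50.9% had an r with that score as high as these 5 genes, in the same order. With CCPG1, PRKAA1 and LAMP2 its r was -0.28, -0.45 and -0.46, and -0.78, -0.80 and -0.75 after quantile normalization.

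**Figure D4:**
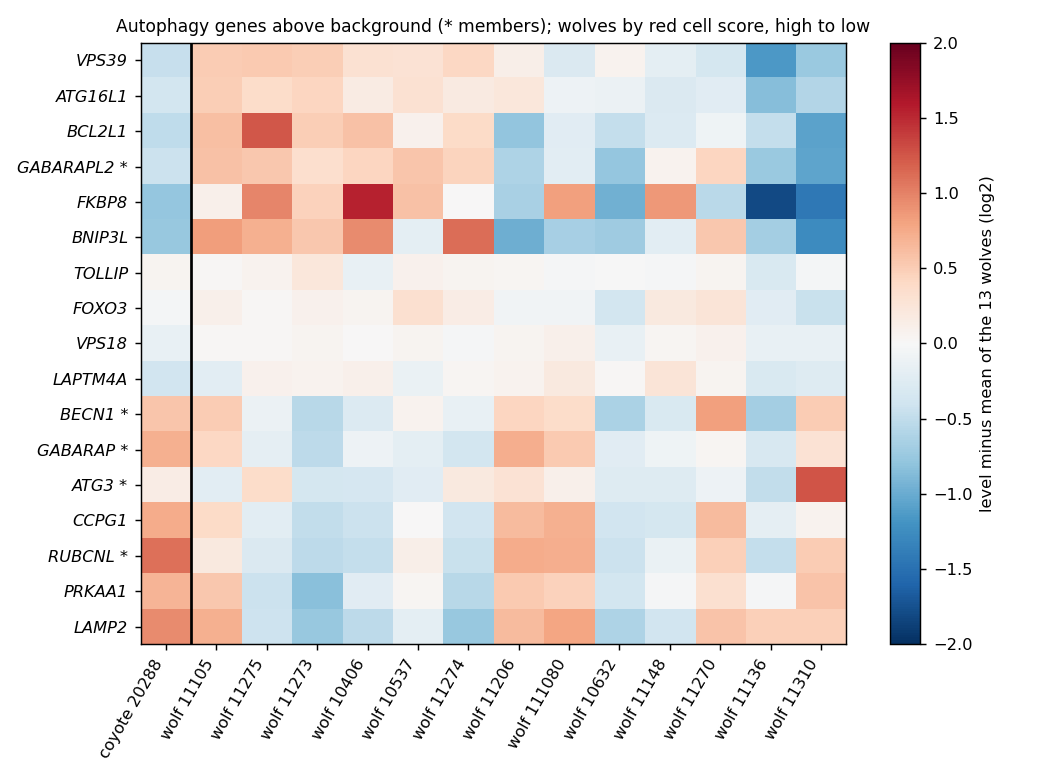
Level of the 5 members (starred) and the 12 genes of the wider lists above background in each animal, minus the mean of the 13 wolves (log2; red higher, blue lower). The coyote is at the left and the wolves follow by red cell score, from high in wolf 11105 to low in wolf 11310; genes run from the highest correlation with that score (VPS39, 0.927) to the lowest (LAMP2, -0.46).

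The other comparison was of the single coyote with the wolves. RUBCNL and GABARAP had the largest differences among the members, both with higher levels in the coyote, but no member passed the test over all probes. RUBCNL stood at 1.98 in the coyote, against 0.87 ± 0.48 in the wolves (SD, n = 13), a difference of 1.11 (SE 0.38, 95% interval 0.34 to 1.88; limma p = 0.00621, adjusted p = 0.998). The coyote lay above all 13 wolves, whose highest level was 1.62, and on each of the 4 slides it shared with wolves it was above all 7 wolf arrays, by 0.97 to 1.34 over their mean. As deposited, its own 4 arrays lay between 1.88 and 2.13, and with slide effects removed between 1.91 and 2.04.

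GABARAP stood at 1.40 in the coyote, against 0.68 ± 0.38 in the wolves (SD, n = 13), a difference of 0.72 (SE 0.30, 95% interval 0.11 to 1.32; limma p = 0.0220, adjusted p = 0.998). Wolf 11206 alone was above the coyote, by less than 0.01, and no wolf was above it without the slide term, after quantile normalization or without the 6 arrays that stood apart. By slide the coyote exceeded the wolves' mean by 0.34, 0.47, 0.76 and 1.36, and it lay within the range of the wolves on the first 2 of these slides. BECN1 stood at 2.04 in the coyote, against 1.49 ± 0.49 in the wolves (difference 0.55, 95% interval -0.34 to 1.44), with wolf 11270 alone above it. ATG3 stood at 1.14 in the coyote, against 0.99 ± 0.46 in the wolves (difference 0.15, 95% interval -0.59 to 0.90). GABARAPL2 stood at 3.05 in the coyote, against 3.48 ± 0.60 in the wolves (difference -0.43, 95% interval -1.86 to 0.99), and 9 of the 13 wolves were above the coyote. After quantile normalization that difference was -0.72, with the coyote at rank 12 of 14 (limma adjusted p = 0.924). The monocyte score was 0.17 in the coyote, against -0.06 to 0.06 in the wolves, and the summed level of its 14 measured genes was 1.30 in the coyote, against -1.83 to -0.22 in the wolves. Much of that difference rests on FCER1G: without it the score was 0.05 in the coyote and -0.07 in the lowest wolf. No wolf was above the coyote in that score either. FCER1G stood at 2.03 in the coyote, against -0.19 to 0.82 in the wolves, while CD14 and LYZ were below the bound there (-0.17 and -0.14). The part of cell composition in the coyote's levels was not tested. The coyote held ranks 1, 2 and 2 of 14 for RUBCNL, GABARAP and BECN1 and rank 10 for GABARAPL2.

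For the 5 members below the bound the coyote was also below it, with differences between -0.10 and 0.00 and 95% intervals that reached at most from -0.28 to 0.21. Of all probes 1 passed (0.00411%), and 910 (3.74%) had an unadjusted p under 0.05 by limma; the members held 2 such probes of 10, those of RUBCNL and GABARAP. None of the 110 genes of the wider lists passed (limma with Benjamini-Hochberg adjustment), while 7 had an unadjusted p under 0.05. CCPG1 (1.73 in the coyote, difference 0.75) and ATG4A (difference 0.16) were higher among these, and LAPTM4A, CTSB, LAPTM5, PLEKHM1 and PSAP lower (differences -0.38 to -0.19). Of these, ATG4A, CTSB, LAPTM5, PLEKHM1 and PSAP had mean levels below the bound, so their differences lie at background. LAPTM4A averaged above the bound but was below it in the coyote (0.21). LAMP2 stood at 2.18 in the coyote, above all wolves (difference 0.95, unadjusted p = 0.0552, adjusted p = 0.998). The coyote's own spread was assumed to equal that of the wolves, and expression cannot be told apart from a base change under the probe.

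**Figure D5:**
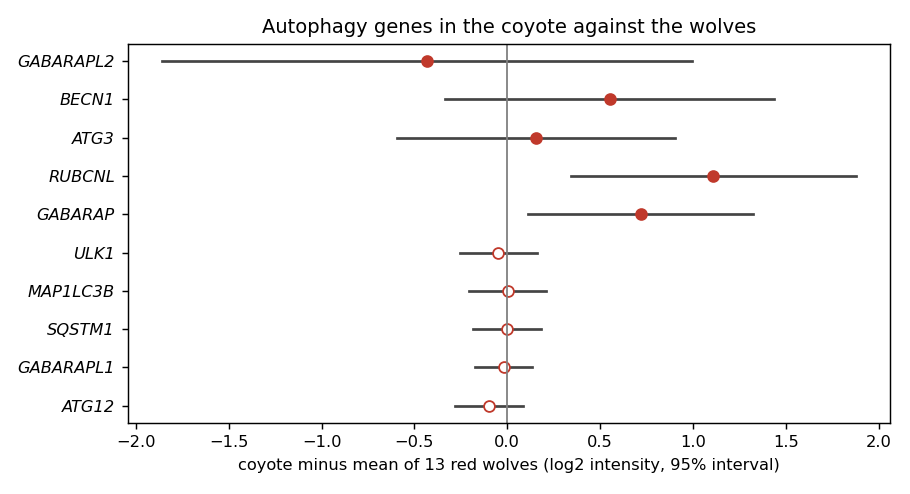
Coyote minus the mean of the 13 wolves for each of the 10 genes in log2 intensity, with the 95% interval from limma; filled points are genes above background. The intervals of RUBCNL (0.34 to 1.88) and GABARAP (0.11 to 1.32) lie above 0 before adjustment for the number of probes, and those of the other 8 genes include 0.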

How the data were processed

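Whole-blood RNA of 1 coyote and 13 red wolves was hybridised to 4 arrays per animal. The deposited table holds log2 intensities, which the submitters' processing notes trace to BeadStudio 1.5.0.34, and centred within each array by the authors, per the labels' design text on the median. In the table each array's mean is 0 and the medians lie between -0.167 and -0.0325, so values are relative to the mean. Whether background was subtracted first is not stated in those notes or labels. The annotation names 18339 of 24354 probes with 1 gene each, 0 with several and 6015 with none. The number of arrays limits the precision.

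The members, gene lists and tests were chosen with earlier results of these data known. limma 3.58.1 in R 4.3.3 was fitted to all probes with an intensity trend. Among wolves, the F test of animal with slide as a term compares animals with array noise (33 residual degrees of freedom); each animal's 4 arrays took the same labelled sample, so p-values measure that spread. For the coyote, slide-adjusted levels, 1 for each of the 14 animals, were compared. Each gene is represented by its brightest probe. Correlations over wolves are descriptions. All 10 members are named; of each wider list, the genes that passed among wolves (at most 6, by SD), and for each member above the bound the 3 most correlated genes; other genes were named after their values were seen. The monocyte score without FCER1G was added after its values were seen. The fits were tested on simulated data. Alternatives were quantile normalization, 75th-percentile centring, the slide term, the trend, dim probes, probe averaging, and leaving out each wolf, each array replicate, or 6 arrays that stood apart.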

Additional observations from a re-analysis of the deposited data

Results flagged for a closer look

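In 8 of 140 sets of 4 arrays (10 genes in 14 animals), 1 array stood far from the other 3 by Dixon's ratio, where chance gives about 1 in 20, or 7. For GABARAP, wolf 11206 had 2.69 on 1 array and 0.869 to 1.11 on the others, and wolf 10537 had -0.427 against 0.753 to 0.833. For GABARAPL2, wolf 10632 had 2.18 against 2.87 to 2.89, and wolf 11310 had 2.02 against 2.52 to 2.61. For BECN1, wolf 11310 had 1.66 on 1 array, against 2.09 to 2.13, and this was the same array that was low for GABARAPL2. For RUBCNL, wolf 11136 had 0.513 against 0.347 to 0.371. Below the background bound, GABARAPL1 in wolf 111080 had -0.0814 against -0.181 to -0.173, and MAP1LC3B in wolf 10537 had 0.145 against -0.101 to -0.0698. Without these arrays wolf 11206 moved from the first to the fourth place among wolves for GABARAP, and wolf 10537 to 0.779 from 0.479. Wolf 11310 stayed lowest for GABARAPL2 at 2.62.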

How the results depend on the processing

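The 5 members called among the wolves passed under all 25 alternatives, and the other 5 passed under none of the 24 run on them. The largest adjusted p of a called member was 0.0273, for GABARAP without the slide term. The count of wider-list genes called lay between 11 (dim probes left out) and 18. Over all probes, 1790 of those left passed with dim probes left out, fewer probes being tested, and 1629 to 2770 when 1 wolf or 1 array of every animal was left out, the lowest without array 3, the highest without wolf 11148. No member and no wider-list gene passed in the coyote comparison under any of the 24 alternatives (2 and 7 had an unadjusted limma p under 0.05 as reported). Over all probes the coyote count was 2 with 75th-percentile centring, 0 without an intensity trend, and 1 to 4 when 1 wolf or 1 array of every animal was left out: 4 without wolf 11310 and 2 without wolf 111080, 11136 or 11148; the cause was not tested. Uncalled coyote differences turned sign for ATG3 under 1 alternative, GABARAPL1 under 2, MAP1LC3B under 8 and SQSTM1 under 9. Quantile normalization changed the lowest wolf for ATG3, RUBCNL and BECN1 and the highest for RUBCNL and GABARAPL2, and an extreme wolf for the dim ULK1, MAP1LC3B and SQSTM1. It moved the coyote difference of GABARAPL2 to -0.716 and put the coyote at rank 1 for GABARAP, 3 for BECN1 and 12 for GABARAPL2. The 5 dim members had levels below the background bound in every animal, so their transcript levels remain undetermined.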
